A study of Mus musculus with 6 samples.

Results

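The non-canonical Wnt receptors and planar polarity genes were followed in oligodendrocyte precursor cells (OPCs), the glial cells that give rise to oligodendrocytes. They are 10 of the 18211 genes in the deposited table and were taken by symbol: the receptors Ror1, Ror2, Ryk and Ptk7, and the core polarity genes Vangl1, Vangl2, Celsr1, Celsr2, Celsr3 and Prickle1. RNA was sequenced from OPCs isolated from C57BL/6 mice at postnatal day (P) 7, with 3 libraries per genotype, wildtype and DISC1-Δ3. DISC1-Δ3 mice carried NG2-CreERT and 1 floxed allele of Disc1 exon 3 (DISC1 exon3 fl/+), so that tamoxifen removes that exon from a single copy in cells that use the NG2 (Cspg4) promoter, which pericytes use too. The wildtype mice had no CreERT. Both groups received tamoxifen by gavage on 4 consecutive days, P4 to P7. Cells were collected from the brain by immunopanning with an antibody to the OPC receptor Pdgfra, and the RNA was extracted without culture.

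Non-canonical Wnt signalling acts without β-catenin. Ligands such as Wnt5a bind Frizzled together with the single-pass receptors Ror1, Ror2, Ryk and Ptk7, and act on the cytoskeleton through small GTPases and JNK, or on intracellular calcium. In planar polarity, the cadherins Celsr1 to Celsr3 join neighbouring cells, with Frizzled and Dishevelled gathered on one side of a cell and Vangl and Prickle on the other, and in the nervous system these genes are known for neural tube closure, neuronal migration and axon guidance.

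Of the 10 genes, Ptk7 and Celsr3 were higher in DISC1-Δ3 OPCs, Celsr1 was lower, 6 did not pass the test, and Ror1 was too low to test. Ptk7 and Celsr3 both showed ranges of RPKM (reads scaled to the length of the transcript and to the size of the library) that did not overlap between the genotypes. The same held for Ryk and Celsr2, which were not called. Of all tested genes, 39.9% were called and 52% had ranges that did not overlap. For the 2 genes called higher, the sequence in front of a RefSeq transcript start is shown. It is given as 250 bases from RefSeq on GRCm38.p6, 5′ to 3′ on the strand of the gene, with each GGGCGG in capitals. GGGCGG is the core of the GC box that Sp-family factors bind.
Ptk7, chr17:46629505-46629754, minus strand: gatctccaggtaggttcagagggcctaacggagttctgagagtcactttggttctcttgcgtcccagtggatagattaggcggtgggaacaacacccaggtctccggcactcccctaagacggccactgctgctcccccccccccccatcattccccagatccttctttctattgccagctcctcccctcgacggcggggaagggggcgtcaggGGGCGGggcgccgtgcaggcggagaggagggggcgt
Celsr3, chr9:108825795-108826044, plus strand: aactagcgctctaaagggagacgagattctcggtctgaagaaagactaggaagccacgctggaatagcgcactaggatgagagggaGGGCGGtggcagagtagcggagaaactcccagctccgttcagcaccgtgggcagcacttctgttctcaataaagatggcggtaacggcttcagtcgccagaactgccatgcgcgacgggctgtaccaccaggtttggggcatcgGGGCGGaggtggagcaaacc

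The Ptk7 window holds 1 GGGCGG and 14 CpG dinucleotides, and the Celsr3 window holds 2 and 17, against a median of 6 CpG over all windows. G and C make up 64.0% of the Ptk7 window and 58.0% of the Celsr3 window, against a median of 52.4%. The shares of windows with a motif given below were not matched for this composition. RefSeq windows were matched for 8 of the 10 genes, as 9 windows; Vangl1 and Celsr1 were not matched. GGGCGG was found on either strand in 8 of the 9 windows, which belong to 7 of the 8 genes (all but Celsr2), and in 32.7% of all 32851 windows of this length. CTTTGAT, the core of the motif of the β-catenin partners TCF and LEF, was searched in the same way and found in 0 of the 9 windows and in 3.2% of all windows. The windows end at a RefSeq transcript start, which is not the outer bound of the gene in either case. The end of the Celsr3 window, with its second GGGCGG, lies inside the RefSeq bounds of that gene. The Ptk7 window lies inside the RefSeq bounds of the gene, in front of the start used here. Such letters describe the windows only, since no binding was measured.

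The levels of the 10 genes spanned a wide range. Ryk was the most abundant in both genotypes, with a mean RPKM of 21.0 in wildtype and 24.8 in DISC1-Δ3, and Ror1 the least, at 0.147 and 0.197. In wildtype OPCs, Ryk was followed by Vangl2 (12.03), Ptk7 (11.0) and Celsr2 (10.6), whose neighbouring ranges overlapped. Then came Celsr1 (5.56), Prickle1 (3.19) with Celsr3 (2.77), and Vangl1 (1.64) with Ror2 (1.63); the ranges overlapped within each of these pairs and between no other neighbours. In DISC1-Δ3 OPCs, Ptk7 stood above Vangl2 and Celsr3 above Prickle1, and Ror2 and Vangl1 were the only neighbours whose ranges overlapped. The median RPKM of the 13792 tested genes was 8.84 over all libraries, and 4 of the 10 genes were above it.

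**Figure D1:**
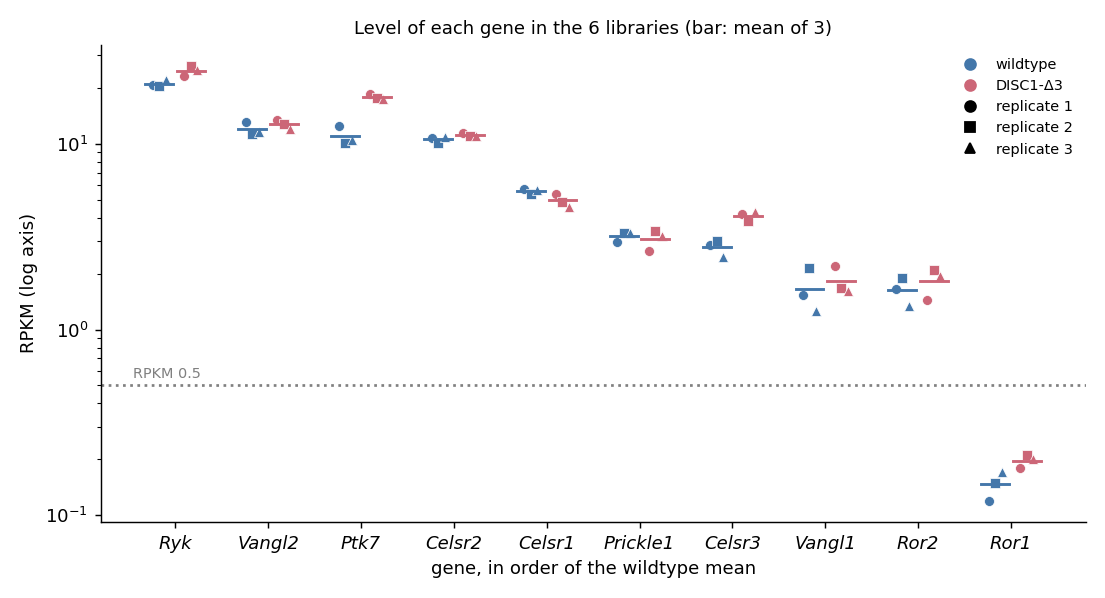
RPKM of the 10 genes (log axis) in each of the 3 wildtype (blue) and 3 DISC1-Δ3 (red) libraries, with the mean of each group as a bar and the filter at an RPKM of 0.5 as a dotted line. Ptk7 and Celsr3 show the clearest separation of the genotypes, and Ror1 lies below the filter in every library.

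Genotypes were tested against each other with edgeR (quasi-likelihood, on reads per gene) for the 13792 genes that reached an RPKM of 0.5 in 3 or more libraries. A gene is called where its Benjamini-Hochberg adjusted p over these genes is under 0.05. A change is given as the log2 fold change of DISC1-Δ3 over wildtype with its standard error (SE). Of the 9 tested genes, 3 were called, 2 higher and 1 lower, where 39.9% of all tested genes were called, 20.4% higher and 19.5% lower. The share of called members, 33.3%, is thus near that of the whole table. Their median log2 fold change was 0.089, beside 0.0075 over all tested genes. The RPKM of the groups did not overlap for 4 of the 9 (Ryk, Ptk7, Celsr2 and Celsr3), against 52% of all tested genes. Among all called genes 51.1% were higher in DISC1-Δ3 with TMM scaling, and 69.2% with scaling by library totals, a setting that also called Ryk and Vangl2 higher.

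The libraries held 13716619 to 16417219 reads and fell into their labelled groups. DISC1-Δ3 replicate 3 stood farther from the other replicates of its genotype (chi-square over its degrees of freedom 5.36 and 5.07, against 1.81 to 2.97 for the other pairs within a genotype). Without it, 3 of the 9 tested genes were higher (Ryk in addition) and 1 was lower. Disc1 itself had an RPKM of 3.34 to 3.81 in wildtype and 2.44 to 2.86 in DISC1-Δ3 (log2 fold change -0.45, SE 0.088, adjusted p = 0.000528 by edgeR); values per gene do not resolve exon 3. Transcripts of other cells were abundant in libraries labelled as OPCs: the 8 microglial markers summed to an RPKM of 8575 to 8860 in wildtype and 6295 to 6495 in DISC1-Δ3, and the 8 OPC markers to 449 to 461 and 612 to 657. All 8 microglial markers were lower in DISC1-Δ3 (median log2 fold change -0.41), and 7 of 8 OPC (0.51), 7 of 8 neuronal (0.44), 7 of 8 mural cell (0.47) and 5 of 8 endothelial markers (0.22) were higher, with 0 lower. Of the markers of maturing oligodendrocytes 6 of 8 were lower, of astrocytes and radial glia 4 were lower and 2 higher, and of fibroblasts and of ependyma 0 of 8 were called. None of the markers was at 0 in every library. In bulk RNA, fewer cells of a type and less RNA per cell cannot be told apart, and the part of this shift in the changes below was not tested.

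**Figure D2:**
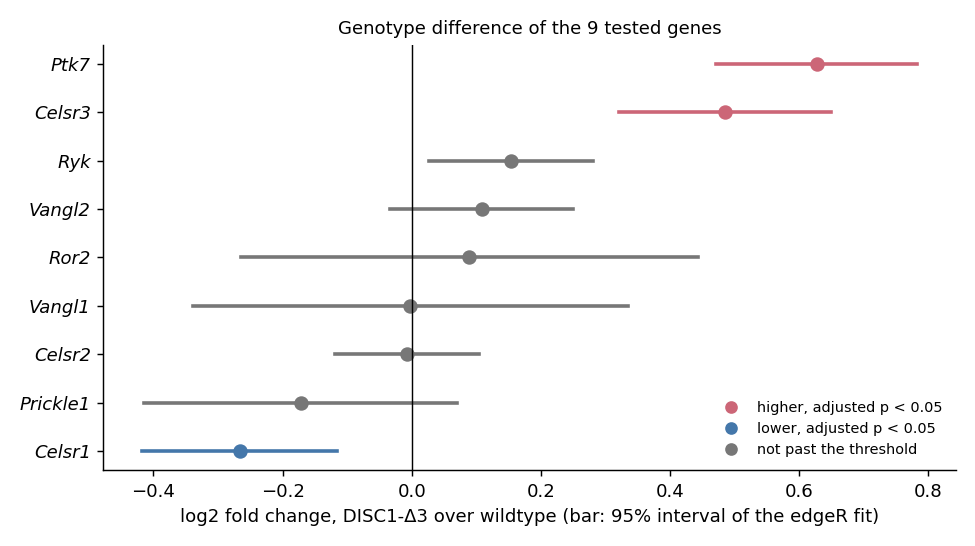
Log2 fold change of DISC1-Δ3 over wildtype for the 9 tested genes, with the 95% interval of the edgeR fit; red and blue mark genes called higher and lower, grey those not called. The intervals of Ptk7 (0.47 to 0.78) and Celsr3 (0.32 to 0.65) lie above 0, that of Celsr1 (-0.42 to -0.12) below it.

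Among the receptors, Ptk7 changed most. Ptk7 (chr17:46564451-46630049, minus strand) encodes a transmembrane protein with an inactive kinase domain that is needed for neural tube closure. Its RPKM was 12.5, 10.1 and 10.5 in wildtype replicates 1 to 3 and 18.5, 17.6 and 17.4 in DISC1-Δ3 replicates 1 to 3. All 3 DISC1-Δ3 libraries were above all 3 wildtype libraries, of which replicate 1 was the highest. The mean rose from 11.0 ± 1.30 to 17.8 ± 0.576 (SD, n = 3 each), or by a log2 value of 0.63 (SE 0.074; a fold of 1.54, 95% interval 1.39 to 1.72; adjusted p = 2.24e-06 by edgeR). Ptk7 was called higher under all 15 alternatives of scaling, filter, test, block and left-out library, at 0.57 to 0.72.

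Ryk (chr9:102834920-102908307, plus strand), a Wnt receptor with a catalytically inactive kinase domain that mediates axon repulsion by Wnt5a, was the most abundant receptor and lay at the threshold. Its RPKM was 20.8, 20.4 and 21.9 in wildtype against 23.1, 26.1 and 25.0 in DISC1-Δ3. These ranges did not overlap, but in reads scaled to library size by TMM (CPM) the lowest DISC1-Δ3 library and the highest wildtype library were level, at 70.63. The log2 fold change was 0.15 (SE 0.060, 95% interval 0.027 to 0.28; unadjusted 0.0202, adjusted p = 0.0505 by edgeR). Under 7 of 15 alternatives Ryk was called higher, and over all of them the adjusted p ran from 0.00429 to 0.339, the latter without DISC1-Δ3 replicate 2.

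The Ror kinases, the best known receptors of Wnt5a, were the least abundant receptors. Ror2 (chr13:53109317-53286124, minus strand) had an RPKM of 1.66, 1.89 and 1.34 in wildtype against 1.45, 2.10 and 1.93 in DISC1-Δ3. The groups overlapped, and within each group the coefficient of variation was 16.9% and 18.5%, against 3.78% and 6.12% for Ryk. With 79 to 130 reads per library the log2 fold change was 0.089 (SE 0.17, adjusted p = 0.709 by edgeR), with a 95% interval of -0.26 to 0.44. Ror1 (chr4:100095791-100444806, plus strand) had 9, 14 and 16 reads in wildtype and 10, 15 and 15 in DISC1-Δ3. Its RPKM was 0.12 to 0.17 in wildtype and 0.18 to 0.21 in DISC1-Δ3, whereas its CPM overlapped, at 0.675 to 1.01 and 0.687 to 0.911. The transcript length implied by reads and RPKM differed between libraries, from 3.90 to 5.75 kb, so the order of the RPKM is not that of the reads.

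Of the Vangl genes, four-pass membrane proteins that recruit Prickle, Vangl2 was by far the more abundant. Vangl2 (chr1:172000960-172027318, minus strand), the gene mutated in looptail mice with an open neural tube, had an RPKM of 13.1, 11.3 and 11.6 in wildtype against 13.4, 12.8 and 11.98 in DISC1-Δ3. The groups overlapped, and the log2 fold change was 0.11 (SE 0.067, 95% interval -0.033 to 0.25, adjusted p = 0.216 by edgeR). Vangl1 (chr3:102153583-102204744, minus strand) had an RPKM of 1.53, 2.14 and 1.26 in wildtype against 2.19, 1.67 and 1.62 in DISC1-Δ3. Its libraries interleaved, and the log2 fold change was -0.0020 (SE 0.16, 95% interval -0.34 to 0.34, adjusted p = 0.994 by edgeR); its sign turned under 8 of 15 alternatives. Exons of Vangl1 overlap the antisense gene Gm16160, and without a stated use of strand the reads of the pair cannot be told apart. Vangl2 made up 88.0% ± 3.36 of the summed Vangl RPKM in wildtype and 87.5% ± 1.32 in DISC1-Δ3 (SD, n = 3 each; two-sided exact permutation test, p = 0.9).

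Prickle1 (chr15:93499111-93596266, minus strand), a cytoplasmic LIM-domain protein that binds Vangl, had an RPKM of 2.95, 3.30 and 3.32 in wildtype against 2.66, 3.38 and 3.17 in DISC1-Δ3. The groups overlapped, with DISC1-Δ3 replicate 1 lowest and replicate 2 highest of all 6. The log2 fold change was -0.17 (SE 0.12, 95% interval -0.41 to 0.071, adjusted p = 0.254 by edgeR), and it was negative and not called under all 15 alternatives.

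The Celsr cadherins moved in different directions. Celsr3 (chr9:108826023-108852969, plus strand), best known from neurons, where it is needed for the major axon tracts of the forebrain, had an RPKM of 2.86, 2.98 and 2.47 in wildtype against 4.21, 3.82 and 4.27 in DISC1-Δ3. Every DISC1-Δ3 library was above every wildtype library. The mean rose from 2.77 ± 0.267 to 4.10 ± 0.244 (SD, n = 3 each), or by a log2 value of 0.49 (SE 0.078; a fold of 1.40, 95% interval 1.25 to 1.57; adjusted p = 7.41e-05 by edgeR). Celsr3 was called higher under all 15 alternatives, at 0.41 to 0.57. The annotated miRNA gene Gm23156 lies within its exons on the same strand.

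Celsr1 (chr15:85898758-86034223, minus strand), known for neural tube closure and for the alignment of hair follicles, was lower. Its RPKM was 5.71, 5.35 and 5.62 in wildtype against 5.40, 4.89 and 4.58 in DISC1-Δ3, so that DISC1-Δ3 replicate 1 lay just above wildtype replicate 2. In CPM after TMM scaling the groups did not overlap, at 53.0, 48.4 and 51.7 against 46.5, 41.3 and 39.5. The log2 fold change was -0.27 (SE 0.072; a fold of 0.831, 95% interval 0.749 to 0.923; adjusted p = 0.00664 by edgeR). The call was kept when each library was left out and lost with scaling by RPKM sums (adjusted p = 0.0576) and in limma on log2(RPKM + 1) and log2(RPKM + 0.1) (0.186 and 0.182).

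Celsr2 (chr3:108390848-108416069, minus strand), which acts with Celsr3 in the ciliated ependyma and in migrating facial motor neurons, was the most abundant of the 3 and had an RPKM of 10.80, 10.11 and 10.94 in wildtype against 11.45, 10.99 and 10.96 in DISC1-Δ3. The highest wildtype RPKM (10.94) lay just below the lowest DISC1-Δ3 RPKM (10.96), and the ranges of CPM overlapped. The log2 fold change was -0.0068 (SE 0.053, adjusted p = 0.931 by edgeR), with a narrow 95% interval of -0.12 to 0.10, and its sign turned under 7 of 15 alternatives.

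The balance among the Celsr genes does not depend on a scaling between libraries. Celsr1 made up 29.5%, 29.0% and 29.5% of the summed Celsr RPKM in wildtype and 25.6%, 24.8% and 23.1% in DISC1-Δ3. Celsr3 made up 14.8%, 16.2% and 13.0% in wildtype against 20.0%, 19.4% and 21.6% in DISC1-Δ3. For both genes all 3 libraries of one genotype lay apart from all 3 of the other, with Celsr1 lower by -4.81 and Celsr3 higher by 5.68 percentage points. The two-sided exact permutation test gave p = 0.1 for each, the smallest that 3 against 3 libraries allows (0.25 after Benjamini-Hochberg adjustment over the 5 shares tested). The 3 shares of a library add up to the whole, so a rise of Celsr3 alone lowers the share of Celsr1. They come from the same RPKM as the values above and are not separate evidence. Celsr2 held 56.0% ± 1.35 and 55.2% ± 0.723 (SD, n = 3 each; exact permutation p = 0.5), and Ror2 held 91.5% ± 2.45 and 90.2% ± 1.05 of the summed Ror RPKM (exact permutation p = 0.5).

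**Figure D3:**
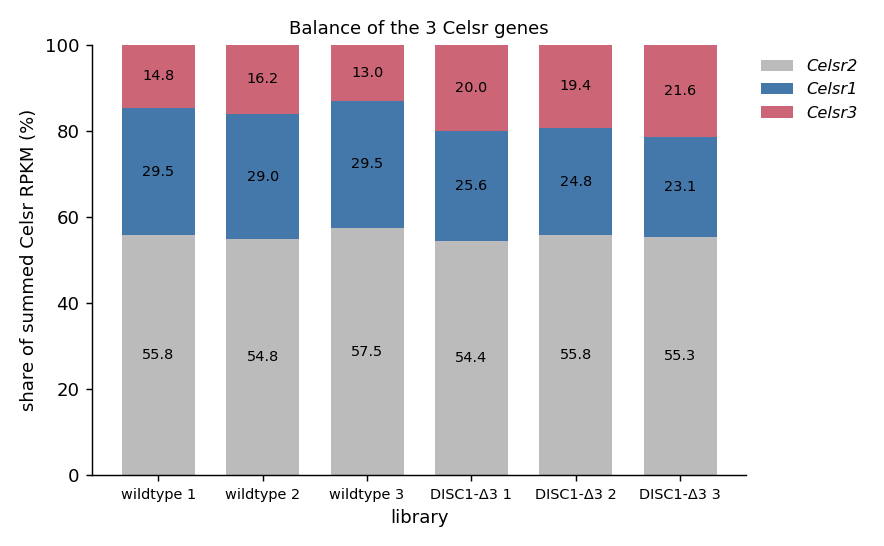
Share of each Celsr gene in the summed RPKM of Celsr1, Celsr2 and Celsr3 (percent) in the 6 libraries. Celsr1 takes 29.0 to 29.5% in wildtype and 23.1 to 25.6% in DISC1-Δ3, Celsr3 13.0 to 16.2% and 19.4 to 21.6%, and Celsr2 stays between 54.4 and 57.5%.

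OPC and neuronal markers were higher in DISC1-Δ3, and the geometric mean of the 8 markers of each kind was higher by 0.57 and 0.55 on the log2 scale. Each gene is therefore also given relative to the mean of the OPC markers, and Ptk7 and Celsr3 relative to that of the neuronal markers. Mural cell and endothelial markers were higher too, and no ratio to them was taken. The ratios given were added after the values were seen and serve as a description. A two-sided exact permutation test gave no p under 0.1, the smallest that 3 against 3 libraries allows (0.2 after Benjamini-Hochberg adjustment over all ratios). A gene that changes little has a lower ratio in DISC1-Δ3 by construction. The log2 ratio of Ptk7 to the OPC markers was -1.60 ± 0.16 in wildtype and -1.47 ± 0.050 in DISC1-Δ3, and that of Celsr3 was -3.59 ± 0.11 and -3.59 ± 0.12 (SD, n = 3 each). In both cases the groups overlapped. Relative to the neuronal markers, Ptk7 differed by 0.15 and Celsr3 by 0.020, again with overlap. Relative to the OPC markers, Ryk differed by -0.34, Vangl2 by -0.49, Celsr2 by -0.50, Prickle1 by -0.63 and Celsr1 by -0.74, without overlap. Ror2 (-0.41), Vangl1 (-0.40) and Ror1 (-0.14, at few reads) were lower too, with overlap. Of the genes without overlap on this ratio, only Celsr1 was called by edgeR. The share of all tested genes without overlap on this ratio was not determined, so the separation is not read as a change of these genes. The part of the cells that these markers stand for in any of these changes was not tested.

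**Figure D4:**
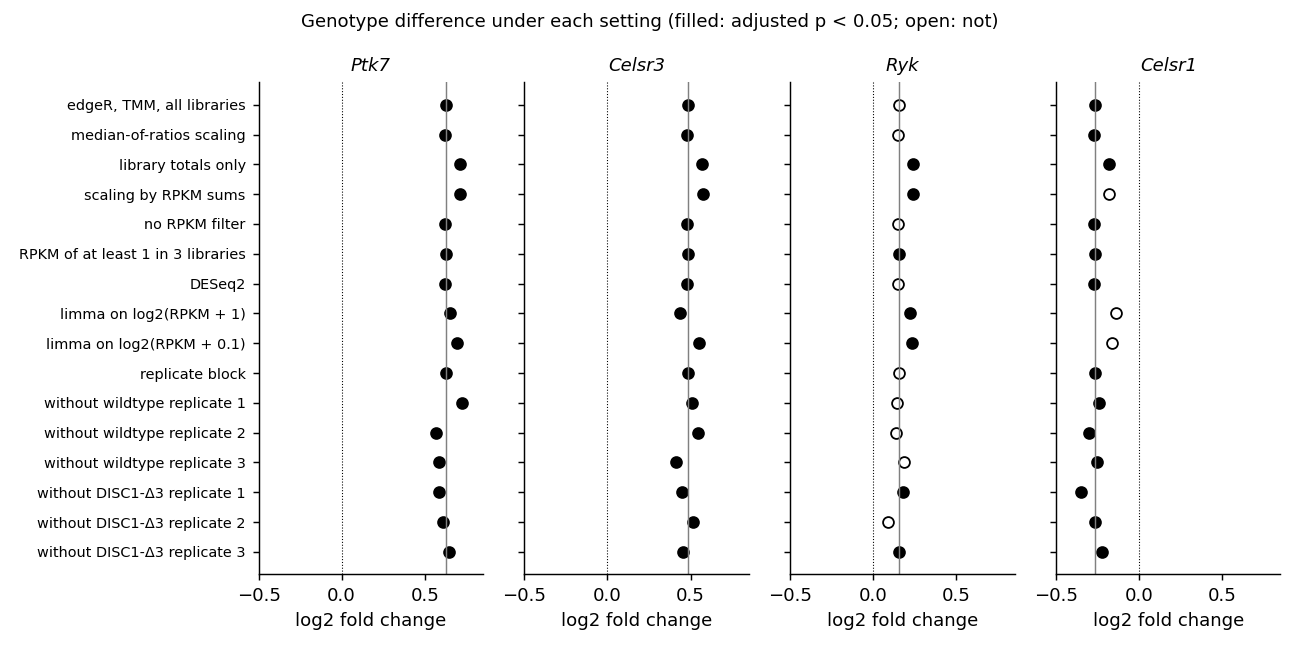
Log2 fold change of Ptk7, Celsr3, Ryk and Celsr1 under the 16 settings (the fit reported and 15 alternatives), with filled points for an adjusted p under 0.05, a grey line at the reported value and a dotted line at 0. Ptk7 and Celsr3 are filled throughout, Ryk is filled under 7 alternatives and Celsr1 is open under 3.

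The other genes of the pathway were described from 8 lists with 77 genes, of which 76 are in the table and 72 were tested. Of these, 22 were higher (30.6%, against 20.4% of all tested genes), 18 lower (25.0%, against 19.5%) and 32 not called, with a median log2 fold change of -0.00013. Without wildtype replicate 2 the counts were 14 higher and 11 lower. The lists follow from the ligands inward, with 3 to 20 tested genes each, and no direction of a list was tested. Some counts moved with the setting. With library totals, Vangl and Prickle trafficking had 1 higher and 2 lower in place of 0 and 4. Lower genes were then 2 in place of 5 in the small GTPase and JNK branch and 5 in place of 8 in the calcium branch. The ligands, the co-receptors and binders, Fat and Dachsous and the ciliary effectors kept their counts there.

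The non-canonical ligands held 2 of 3 tested genes that rose and 0 that fell (median 0.68). Wnt5a, the ligand of Ror2 and Ryk, had an RPKM of 2.39, 2.44 and 2.55 in wildtype against 6.53, 6.44 and 6.96 in DISC1-Δ3, a log2 fold change of 1.35 (SE 0.090, adjusted p = 1.7e-09 by edgeR). Wnt5b rose by 0.68 from a low level (RPKM 0.68 to 0.95 in wildtype, 1.24 to 1.57 in DISC1-Δ3; adjusted p = 0.0198 by edgeR), and the call was lost under 3 alternatives. Wnt11, at an RPKM of 0.17 to 0.42, and Wnt9b were below the filter. Among co-receptors and binders of these ligands, 4 of 6 rose and 0 fell (median 0.32), led by the glypicans Gpc4 (0.83) and Gpc3 (0.60), heparan sulphate proteoglycans of the cell surface; the secreted Cthrc1, which links Wnt to Frizzled and Ror2, lay at the threshold (0.38, adjusted p = 0.0490 by edgeR) and lost its call under 8 of 15 alternatives.

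Of the core partners, 4 of 9 rose and 0 fell (median 0.16). The Dishevelled genes, the cytoplasmic adaptors behind Frizzled, were all called: Dvl3 by 0.26, Dvl2 by 0.24 and Dvl1 by 0.16, whose call (adjusted p = 0.0329 by edgeR) was lost under 7 of 15 alternatives, among them each left-out library. Prickle2, the close relative of Prickle1, rose by 0.36 (RPKM 1.92 to 2.18 in wildtype and 2.69 to 2.87 in DISC1-Δ3; adjusted p = 0.00373 by edgeR), where Prickle1 had -0.17. The polarity Frizzleds were not called, with -0.073 for Fzd3 and 0.11 for Fzd6, nor was the scaffold Scrib at 0.12, which was called under 5 alternatives. In the Fat and Dachsous system, which sets polarity over a tissue, Dchs1 (0.24) and Fat4 (0.22) rose and Fjx1, a Golgi kinase that modifies Fat and Dachsous cadherins, fell by 0.46 (RPKM 113 to 115 in wildtype and 82.7 to 91.4 in DISC1-Δ3); the other 2 of 5 were not called. The call of Fat4 was lost under 12 of 15 alternatives.

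Of the genes for trafficking and turnover of Vangl and Prickle, 0 of 10 rose and 4 fell (median -0.13), among them the ubiquitin ligases Smurf1 and Smurf2, both by 0.24, which mark Prickle for degradation. Of the ciliary effectors 1 of 5 rose, Wdpcp by 0.48, and 0 fell. The small GTPase and JNK branch had 2 of 14 genes that rose and 5 that fell (median -0.063). The largest rise was that of Dact1, a Dishevelled-binding regulator, by 1.48 (RPKM 3.23 to 3.49 in wildtype and 9.49 to 10.1 in DISC1-Δ3), followed by the kinase Mapk10 (0.28). The largest falls were those of the atypical GTPase Rhou (-0.82) and of the kinase Rock1 (-0.47), whose groups overlapped in RPKM and whose call was lost under 6 alternatives.

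In the calcium branch 7 of 20 genes rose and 8 fell (median 0.011). Members of the same family went opposite ways: Nfatc4 rose by 0.72 and Nfatc1 fell by 0.55, and among the calcium channels of the endoplasmic reticulum Itpr1 rose by 0.72 and Itpr3 fell by 0.69. Nfatc1 was at an RPKM of 15.6 to 16.6 in wildtype and 11.4 to 11.97 in DISC1-Δ3, and Nfatc4 at 1.24 to 1.51 and 1.90 to 2.87. Each of these 4 genes kept its call under all 15 alternatives.

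**Figure D5:**
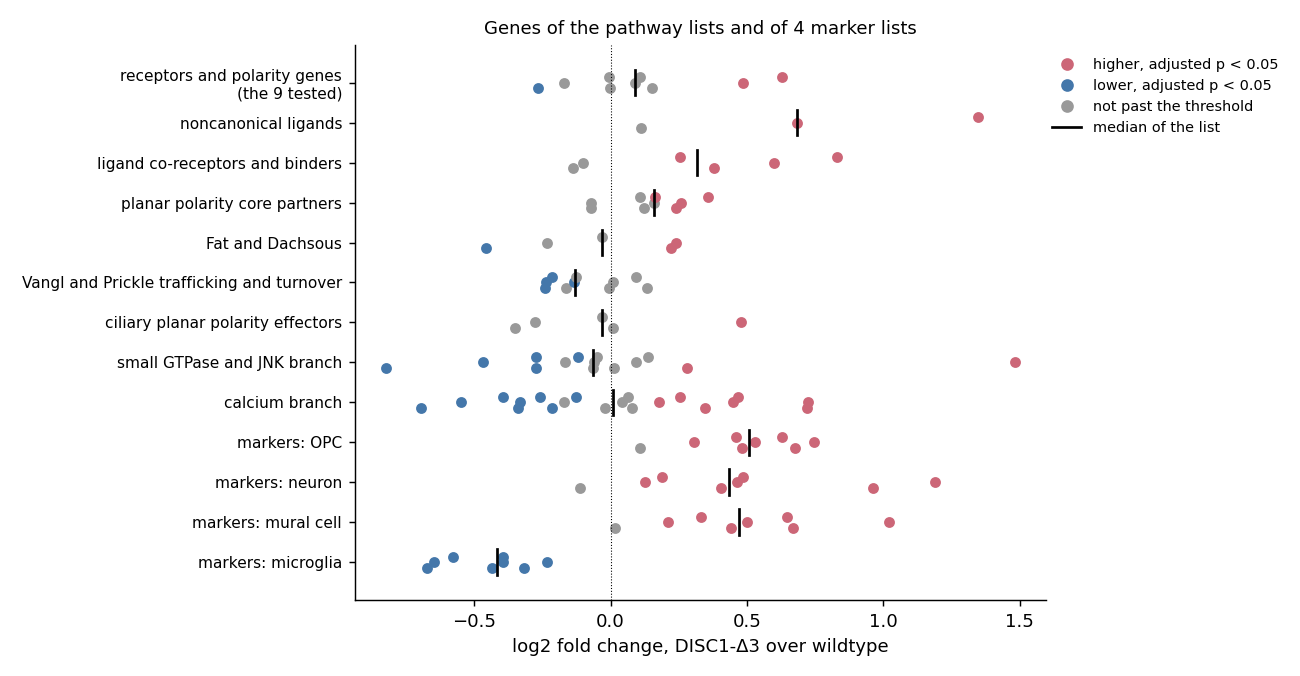
Log2 fold change of each tested gene (points) in the receptor and polarity genes, the 8 pathway lists and 4 of the marker lists, coloured by call, with the median of each list as a black bar. The median is highest for the ligands (0.68), and all 8 microglial markers are lower.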

How the data were processed

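RNA of 6 libraries, 3 per genotype, was sequenced as poly(A)-selected cDNA from random hexamers. The table that the authors deposited gives an expected count and an RPKM per gene in every library, the latter being the count divided by transcript length and library total. The submitters' processing notes name Bowtie2 2.2.5 and the genome build mm10; the counting tool, the annotation and any use of strand are not given in the sources used here. Of the deposited expected counts above 0, 90.2% are whole numbers; the rest were rounded, which can shift genes of few reads. The 4 columns that hold averages of a group were left out.

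Depth was 13716619 to 16417219 reads per library. Genes that reached an RPKM of 0.5 in 3 or more libraries (13792 of 18211) were tested with edgeR 4.0.16 in R 4.3.3 (quasi-likelihood, TMM scaling, genotype as the sole term, no replicate block), with two-sided p-values adjusted by the Benjamini-Hochberg method and a threshold of 0.05. The biological coefficient of variation was 5.44%. The study's methods name DESeq2, which was run as an alternative (DESeq2 1.42.0), as was limma 3.58.1 on log2(RPKM + 1). Family shares and the ratios to markers were compared with two-sided exact permutation tests. The fits were tested on simulated data. Positions and promoter windows are from RefSeq (GRCm38.p6), and overlapping exons from GENCODE.

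All 10 genes are named, and of each pathway list the 2 called genes with the largest rise and the 2 with the largest fall, with Wnt5a, Wnt5b, Wnt11, Fzd3, Fzd6, Dvl2, Prickle2 and Scrib. Wnt9b, Cthrc1 and Dvl1 were named after their values were seen. The genes and lists were chosen with earlier results of these data known. The labels do not say whether replicates are separate animals, so p-values measure the spread between these samples, which may be technical.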

Additional observations from a re-analysis of the deposited data

How the results depend on the processing

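With scaling by RPKM sums, limma on log2(RPKM + 1) and limma on log2(RPKM + 0.1), 1755, 1774 and 1763 of all genes were lower in place of 2691, and the receptor and polarity genes had 0 lower in place of 1. Scaling by library totals or by RPKM sums gave 4 of them higher in place of 2 (Ryk and Vangl2 in addition) and 10 lower pathway genes in place of 18, and both limma fits gave 9. The cause was not tested. Leaving out each library in turn gave 14 to 20 higher and 11 to 25 lower pathway genes, the lowest counts without wildtype replicate 2; 2 to 3 higher and 1 lower of the receptor and polarity genes; and 2149 to 2918 higher and 2149 to 3314 lower of all genes.

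Of the named genes, 4 changed sign under an alternative, and none of these was called under any setting. Vangl1 (-0.0020) turned to 0.080 with library totals, 0.084 with RPKM sums, 0.10 and 0.16 in limma with a pseudocount of 1 and 0.1, and 0.0030 with the replicate block. Celsr2 (-0.0068) turned to 0.076, 0.079, 0.063 and 0.068, and Fzd3 (-0.073) to 0.010, 0.014, 0.0042 and 0.0045, in the first 4 of these settings. With single libraries left out Ror2 ran from -0.048 to 0.22, Vangl1 from -0.13 to 0.15 and Celsr2 from -0.051 to 0.013; Ror2 turned to -0.038 without wildtype replicate 3 and to -0.048 when DISC1-Δ3 replicate 2 was left out, Vangl1 to 0.15, 0.0052 and 0.070 without wildtype replicate 2 and DISC1-Δ3 replicates 2 and 3, and Celsr2 to 0.0094, 0.012 and 0.013 without wildtype replicates 1 and 3 and DISC1-Δ3 replicate 3.

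Beyond those named in the report, calls were lost for Smurf2 under 3 alternatives, Smurf1 and Wdpcp under 2, and Dvl2 and Mapk10 under 1; pathway genes that are not named were followed by counts only. DESeq2 called 2229 genes higher and 2371 lower. As shares of reads, Celsr1 differed by -5.36 and Celsr3 by 6.82 percentage points. As shares of RPKM, with single libraries left out, the differences ran from -5.37 to -4.11 and from 4.85 to 6.44.

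The labels do not say whether equal replicate numbers pair the samples. Deviations from the group means of same-numbered libraries had correlations of 0.044, 0.026 and -0.029, against -0.053 to 0.027 for differently numbered ones. With 3 libraries per group, such values cannot exclude a pairing. With the replicate number as a block, 2774 genes were higher and 2655 lower, the receptor and polarity genes still had 2 higher and 1 lower, and 20 pathway genes were higher and 18 lower. At 9 to 16 reads per library, depth allows no comparison of Ror1 (-0.048 with no filter), and at 79 to 134 reads per library Ror2 and Vangl1 had standard errors of 0.17 and 0.16.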
